A study of Mus musculus with 11 samples.

Results

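Among 34802 SMC3 peaks called in mouse embryonic fibroblasts that lack SA1, 2941 (8.45%) overlapped no SMC1 peak of the same cells and no peak of any of the 4 wild-type lists for SA1, SA2, SMC1 and SMC3. They are called unaccompanied SMC3 peaks here. The members were chosen by these measured overlaps, with a minimum of 1 bp, so their lack of an SMC1 peak and of a wild-type peak is the rule and not a result. The series holds 10 interval lists with 163094 intervals in all.

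Cohesin is a ring-shaped complex that keeps sister chromatids paired until anaphase and extrudes chromatin loops. SMC1 and SMC3 are its coiled-coil ATPase arms and bind each other through their hinges, a kleisin subunit closes the ring, and in somatic vertebrate cells SA1 or SA2 (STAG1 or STAG2) binds the kleisin. In mammalian cells many cohesin positions coincide with those of CTCF, a DNA-binding insulator protein.

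Chromatin immunoprecipitation and sequencing (ChIP-seq) with antibodies to SA1, SA2, SMC1 and SMC3 was done on untreated fibroblasts from E12.5 embryos of a C57BL/6 x 129 Sv background. The SA1-null cells gave 177 SA1, 6352 SA2, 47003 SMC1 and 34802 SMC3 peaks. The wild-type cells gave 26602 SA1, 7741 SA2, 24000 SMC1 and 15564 SMC3 peaks, and the 2 inputs, each pooled over both genotypes, gave 436 and 417 intervals. The labels name neither the embryos' sex, nor the allele behind the SA1 loss, nor which cultures were separate. Each list stands for 1 library, except the SA1-null SMC1 list, which takes 2 samples together. There was therefore no replicate spread and no test between genotypes. Intervals in brackets are 95% Wilson intervals, which cover the counting of peaks in these lists and nothing else. The labels' cell type could not be set against marker genes, because the lists hold positions only, with no height, score or sequencing depth.

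The rule narrowed the SMC3 list in a pair of steps. Of the 34802 peaks, 3903 (11.2%, interval 10.9 to 11.6%) had no SA1-null SMC1 peak. Of these 3903, 962 (24.6%) had a peak in some wild-type list and 2941 (75.4%) had none. Taken from the other side, 9693 SMC3 peaks had no wild-type peak, and 2941 of them (30.3%, interval 29.4 to 31.3%) also lacked SMC1, while 6752 had it. The SMC1 list alone thus kept 6752 peaks out of the set, against 447 for wild-type SA1 alone, 267 for wild-type SMC1 alone, 29 for wild-type SMC3 alone and 8 for wild-type SA2 alone. The mirror set, SMC1 peaks of SA1-null cells with no SMC3 peak and no wild-type peak, held 12895 of 47003 SMC1 peaks (27.4%). The SMC1 list was the longer one and came from 2 samples, so the sizes of the unaccompanied sets describe these lists. Peaks with no wild-type peak are called new below, which means only that no wild-type list held a peak there. The wild-type lists were shorter, with 15564 SMC3 and 24000 SMC1 peaks, and depth is unknown. Whether such positions gained cohesin on SA1 loss was not tested. The name of the SA1-null SMC3 list states a false discovery rate of 10, read as percent. That would permit 3480 false intervals in a list of this length. How many of the 2941 are such calls was not tested.

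The SMC3 peaks without SMC1 that did have a wild-type peak, just outside the set, mostly carried a single wild-type subunit. Of these 962, 447 (46.5%) overlapped wild-type SA1 alone and 267 (27.8%) overlapped wild-type SMC1 alone. Counted with any company, 627 had SA1, 432 had SMC1, 93 had SMC3 and 58 had SA2, and 1 peak had all 4. Thus 432 SA1-null SMC3 peaks overlapped a wild-type SMC1 peak and no SA1-null SMC1 peak. Whether those wild-type SMC1 peaks met an SA1-null SMC1 peak beyond the SMC3 peak was not counted.

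The unaccompanied SMC3 peaks were narrow. Their median width was 519 bp (95% order-statistic interval 512 to 526 bp), with the middle 50% between 438 and 620 bp, and they ran from 248 to 1984 bp. The new SMC3 peaks with SMC1, which also lack every wild-type peak, had a median of 622 bp. Peaks with both SMC1 and a wild-type peak had a median of 678 bp, and those with a wild-type peak but no SMC1 had 527 bp. Both classes without SMC1 were thus narrower in the median than both classes with it, whether or not a wild-type peak was present. The SMC1 list showed the same order, with 446 bp in the mirror set and 567 bp in all other SA1-null SMC1 peaks. Wider intervals have more chance to overlap another interval, so width was not free of the rule. Only 37 of the 2941 (1.26%) were wider than 1000 bp, against 6.62% of all SA1-null SMC3 peaks and 7.85% of the new peaks with SMC1.

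**Figure D1:**
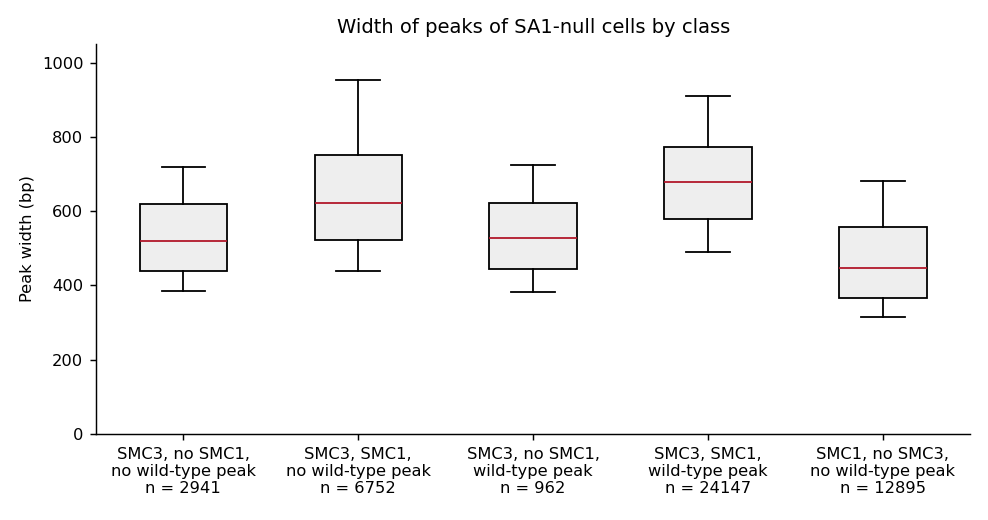
Width in bp of peaks called in SA1-null cells, by overlap class. The line is the median, the box the middle 50% and the whiskers the 10th and 90th percentiles over peaks; unaccompanied SMC3 peaks (left) had a median of 519 bp, new SMC3 peaks with SMC1 622 bp.

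Unaccompanied peaks took a smaller share of each wider class of SMC3 peaks. When all SA1-null SMC3 peaks were put in 10 classes of near-equal number, they made up 25.7% (interval 24.2 to 27.1%) of the narrowest class, 217 to 453 bp wide. They made up 6.76% of the fifth class, 614 to 652 bp wide, and 2.39% (interval 1.93 to 2.95%) of the widest, from 903 bp upward. The 3 widest classes, with 2.65, 2.44 and 2.39%, had overlapping intervals. New SMC3 peaks with SMC1 ran differently, with 23.7% of the narrowest class, 11.5% of the eighth and 24.9% of the widest. At the narrow end both kinds of new peak were about as frequent, with 896 unaccompanied peaks and 828 with SMC1, and at the wide end there were 83 and 864.

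**Figure D2:**
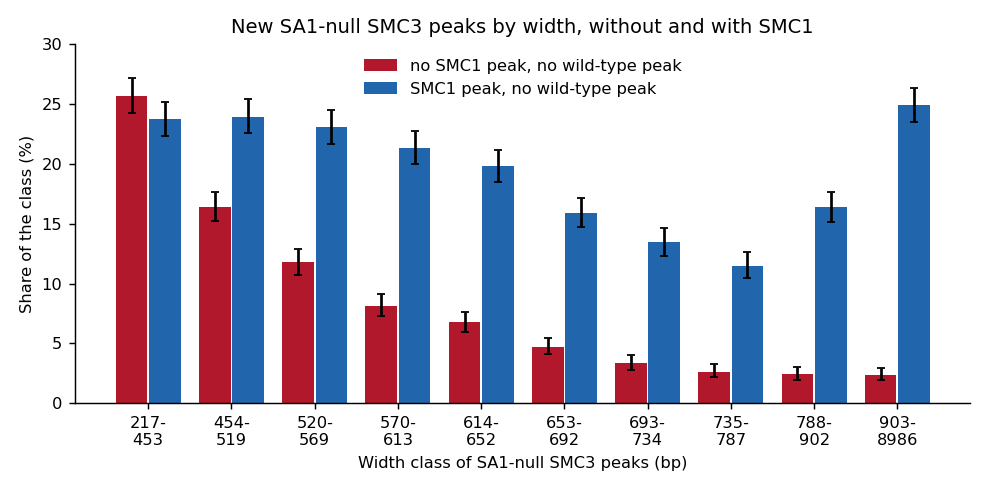
Share (%) of each width class of SA1-null SMC3 peaks taken by new peaks without SMC1 (red, left bar) and with SMC1 (blue, right bar); error bars are 95% Wilson intervals over peaks. The red bars fall from 25.7% in the narrowest class to 2.39% in the widest, and the blue bars are 23.7% and 24.9% there.

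SA2, the remaining SA subunit in SA1-null cells, had no peak at any unaccompanied SMC3 peak. The SA1-null SA2 list was not named in the rule. Most of its peaks overlapped a wild-type peak, however, and the rule excludes those places, so a share near 0 was largely set in advance. An SA2 peak overlapped 0 of 2941 unaccompanied peaks, which allows a share of up to 0.102% by a limit of 3 counts and of up to 0.130% by the Wilson interval, against 15.8% of all SA1-null SMC3 peaks. New SMC3 peaks with SMC1 were low as well, at 6 of 6752 (0.0889%, interval 0.0407 to 0.194%), and the Wilson intervals of both kinds overlapped. The mirror set had an SA2 peak at 5 of 12895 (0.0388%). By contrast, SMC3 peaks without SMC1 but with a wild-type peak had SA2 at 43 of 962 (4.47%, interval 3.34 to 5.97%), and those with both had it at 5456 of 24147 (22.6%). In these lists the SA2 share went with the wild-type peak at SMC3 peaks without SMC1 and at those with it. Since most SA2 peaks overlapped a wild-type peak, this contrast is a description and not a separate result. In the narrowest width class, where the unaccompanied peaks were most frequent, 4.21% of all SMC3 peaks had SA2. There 0 of 896 unaccompanied peaks had it, and 1 of 828 new peaks with SMC1.

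The SA2 list itself left little to find at such places. Only 506 of the 6352 SA1-null SA2 peaks (7.97%) lay outside every wild-type peak, and 6 of these 506 had an SA1-null SMC3 peak. SMC1 was at 11 of the 506. An SMC3 peak with no SA2 peak is therefore not a position shown to lack SA2. Close SA2 peaks were few too. Within 1000 bp an SA2 peak stood near 25 of the 2941 unaccompanied peaks (0.850%, interval 0.576 to 1.25%), against 65 of the 6752 new peaks with SMC1 (0.963%, interval 0.756 to 1.23%) and 16.7% of all SA1-null SMC3 peaks. Within 10000 bp the shares were 7.62%, 8.03% and 23.5% in the same order.

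The unaccompanied peaks did not lie in the background lists. None of the 2941 overlapped an interval of the input used for the SMC libraries, of the other input or of the SA1-null SA1 list, which shows what the SA1 antibody brings down without its target. The shares over all SA1-null SMC3 peaks were 0.0488%, 0.0201% and 0.0% for the same 3 lists, so a count near 0 was the rule across the SMC3 list. Within 1000 bp there was 1 unaccompanied peak with an interval of the SMC input. These 3 lists hold 417, 436 and 177 intervals and can mark few positions. The SMC3 list was itself called against the SMC input, which by itself disfavours overlap with that input.

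Most unaccompanied peaks had an SMC1 peak within 10000 bp, as did most new peaks with SMC1 when their own SMC1 peaks were left out. The rule excludes every overlap, which bears on these distances, so the values are a description. Centre to centre, the nearest SA1-null SMC1 peak was 7798 bp away in the median (95% order-statistic interval 7275 to 8321 bp), and the nearest wild-type SA1 peak 24659 bp away. Between nearest edges, 112 unaccompanied peaks (3.81%) had an SMC1 peak within 200 bp, 451 (15.3%) within 1000 bp, 1695 (57.6%) within 10000 bp and 2727 (92.7%) within 50000 bp. The other 214 (7.28%) stood farther than 50000 bp from any SMC1 peak, and their median width was 471.5 bp, against 522 bp for the 112 nearest ones. For comparison, new SMC3 peaks with SMC1 were set against other SMC1 peaks, those that touched none of their class. Such a peak stood within 200 bp in 2.62% of cases, within 1000 bp in 11.1%, within 10000 bp in 54.0% and within 50000 bp in 92.6%. Peaks of the mirror set had an SMC3 peak within 1000 bp in 9.72%. These reference lists differ in length, which moves such shares.

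Distances to the wild-type lists were similar for unaccompanied peaks and for new peaks with SMC1. The medians to SA1 and SMC1 were slightly longer, that to SA2 slightly shorter and that to SMC3 nearly the same. At the 75th percentile the order reversed for SA1, with 48347 and 50365 bp, and for SA2, with 162474 and 156397 bp, unaccompanied peaks first. The nearest edge of any wild-type interval was 14666 bp away in the median for unaccompanied peaks and 13436 bp for new peaks with SMC1. For wild-type SA1 the medians were 24143 and 23199 bp, for wild-type SMC1 20597 and 18896 bp, for wild-type SMC3 33166 and 33161 bp, for wild-type SA2 72642 and 74083 bp, and for SA1-null SA2 94217 and 90273 bp, each with the unaccompanied peaks first. Only 246 unaccompanied peaks (8.36%) had a wild-type interval within 1000 bp, against 7.70% of the new peaks with SMC1. No test of these differences was made, since peaks are not replicates of a condition.

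**Figure D3:**
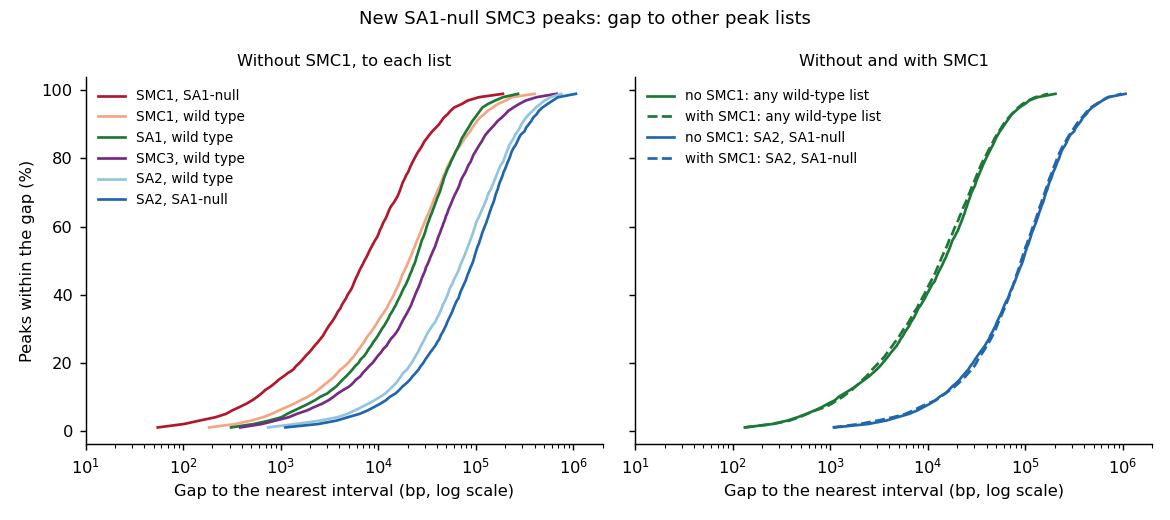
Cumulative share (%) of new SA1-null SMC3 peaks against the gap in bp (log scale) between nearest edges. Left, unaccompanied peaks to each of 6 lists, with SA1-null SMC1 nearest (median 7224 bp); right, unaccompanied peaks (solid) and new peaks with SMC1 (dashed), whose curves to the wild-type lists have medians of 14666 and 13436 bp.

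The SMC1 peaks next to unaccompanied SMC3 peaks were of every kind. The rule keeps out SMC3 peaks that touch a wild-type peak, which by itself disfavours wild-type peaks at SMC1 peaks close by, so the shares over all SMC1 peaks are given beside these values only as a description. The nearest SMC1 peak overlapped an SMC3 peak of its own at 1816 of 2941 unaccompanied peaks (61.7%), against 66.6% of all SA1-null SMC1 peaks. It had a wild-type peak at 1439 (48.9%), against 57.7% of all. It belonged to the mirror set, with neither, at 978 (33.3%), against 27.4% of all. Where the gap was at most 200 bp, it belonged to the mirror set in 48 of 112 cases (42.9%), so there an SMC3 peak without SMC1 stood beside an SMC1 peak without SMC3. For gaps above 200 and up to 1000 bp the mirror set share was 32.4%, up to 5000 bp 35.0%, up to 10000 bp 32.7% and up to 50000 bp 32.8%. Where the gap was above 50000 bp it was 57 of 214 (26.6%). The rule also keeps the unaccompanied peak itself from overlapping that SMC1 peak, which bears on the share at the shortest gaps.

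The closest cases show what the 1 bp rule separates. All positions are given in mm9. The nearest was chr19:4510295-4511161, 867 bp wide, which abutted an SMC1 peak of 475 bp with 0 bp between them. That SMC1 peak overlapped another SA1-null SMC3 peak. The nearest other SA1-null SMC3 peak stood 27 bp from the unaccompanied one, and whether the 2 are the same peak was not recorded. At chr13:32502709-32503178, 470 bp wide, an SMC1 peak of 851 bp stood 5 bp away, and wild-type SMC1, SA1, SMC3 and SA2 peaks stood 52, 67, 72 and 80 bp away. SA1-null SA2 was 111 bp off and another SA1-null SMC3 peak 36 bp off, so each of the 4 wild-type lists and each SA1-null list but that of SA1 had a peak within 111 bp. At chr2:30568596-30569003, 408 bp wide, the SMC1 peak 9 bp away was 512 bp wide and had neither an SMC3 nor a wild-type peak. The next SMC3 peak was 399 bp away and the nearest wild-type interval, of SMC1, 3467 bp.

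The 5 widest unaccompanied peaks stood at least 4195 bp from SMC1. The widest, chr2:75507483-75509466, spanned 1984 bp and lay 10359 bp from the nearest SMC1 peak and 51289 bp from wild-type SA1. Its nearest SA1-null SMC3 neighbour was 5054 bp away. The next, chr6:146838158-146839709, spanned 1552 bp, with SMC1 at 4195 bp and wild-type SA2 at 10578 bp. The third, chr2:24175544-24177016, spanned 1473 bp, with an SMC1 peak 8421 bp away that had no SMC3 and no wild-type peak. Its wild-type SA1, SMC1 and SMC3 neighbours and its SA1-null SA2 neighbour lay 22653 to 22760 bp off, as peaks of several subunits at equal distance. The fourth, chr9:85510088-85511518, spanned 1431 bp. Its nearest SMC1, SMC3 and SA2 peaks of both genotypes lay 27844 to 27999 bp off, and a wild-type SA1 peak stood nearer, at 19190 bp. The fifth, chr16:87699616-87700947, spanned 1332 bp, and its nearest SA1-null SMC1, SMC3 and SA2 peaks and wild-type SA1, SMC1 and SMC3 peaks lay 45829 to 46069 bp away.

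A few unaccompanied peaks stood far from all other cohesin. The farthest from the other 7 immunoprecipitation lists was chr6:111397666-111398074, 409 bp wide, with the nearest interval, of wild-type SA1, 578157 bp away. Next came chr19:19637841-19638268, 428 bp wide, with wild-type SA1 at 519861 bp. The last of the 3 was chr6:68200221-68200667, 447 bp wide, with wild-type SA2 at 417683 bp. All 3 were narrower than the median of the set.

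Along the SMC3 list the unaccompanied peaks mostly stood singly, as a class of 8.45% of the list would by its share alone. In the order of peaks on each chromosome, 2345 had no other unaccompanied peak next to them, 492 stood in 246 pairs, 75 in 25 runs of 3, and the longest run, of 5, occurred once. Of their 5880 flanking SMC3 peaks, 62.2% had SMC1 and a wild-type peak, 24.4% were new with SMC1, and 10.8% were unaccompanied. The shares in the whole list were 69.4%, 19.4% and 8.45%, so unaccompanied peaks were slightly above their share among these flanks. Flanks of the new peaks with SMC1 were 58.8%, 28.4% and 10.6% in the same order. Another SMC3 peak of any class stood within 1000 bp of 329 unaccompanied peaks (11.2%), against 10.9% of all SA1-null SMC3 peaks. Within 10000 bp this was so for 1398 (47.5%), against 47.1% of all. Another unaccompanied peak stood within 10000 bp of 237 (8.06%), against 21.4% for new peaks with SMC1 to their own class and 30.3% over all peaks to their own class. The classes differ in size, and the larger ones have more neighbours of their own kind.

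Within 50 kb to each side an unaccompanied peak had a median of 4 SMC1 peaks and 3 other SMC3 peaks of SA1-null cells, and 1 wild-type SA1 peak. New peaks with SMC1 had medians of 5, 3 and 1, and peaks with SMC1 and a wild-type peak had 4, 2 and 2. Both these classes count the SMC1 peak they overlap, and the latter also counts any wild-type SA1 peak it overlaps. Unaccompanied peaks have no such peak by the rule, so the medians are not like counts of neighbours. No wild-type SA1 peak lay within 50 kb to each side of 714 unaccompanied peaks (24.3%), against 25.6% of the new peaks with SMC1. An SA1-null SA2 peak was missing from that span at 2030 unaccompanied peaks (69.0%), against 70.1%. Among the 24147 peaks with SMC1 and a wild-type peak the shares were 4.41% for SA1 and 52.0% for SA2. Any SA1 or SA2 peak that these overlap counts there.

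The share of SMC3 peaks that were unaccompanied varied little between chromosomes. It averaged 8.42% ± 0.614 (SD over 19 autosomes), from 7.27% on chromosome 9 to 9.43% on chromosome 5. Chromosome X had 68 unaccompanied peaks among 703 SMC3 peaks (9.67%, interval 7.70 to 12.1%), within counting error of the autosomes. New SMC3 peaks with SMC1 took a lower share of X, with 78 peaks (11.1%, interval 8.98 to 13.6%) against 19.7% ± 1.51 on autosomes, where the lowest value was 17.0%. On X the unaccompanied and the accompanied new peaks were thus nearly equal in number, whereas on each autosome the accompanied ones were the more frequent. In density, X held 0.419 unaccompanied peaks per Mb, against 1.20 ± 0.181 on autosomes, and 4.33 SMC3 peaks of any kind per Mb against 14.3 ± 2.07. Among autosomes, chromosome 11 was densest, with 1.67 unaccompanied peaks per Mb, and chromosome 14 sparsest, with 0.926. These chromosomes were also the extremes for all SMC3 peaks, with 20.4 and 11.35 per Mb.

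**Figure D4:**
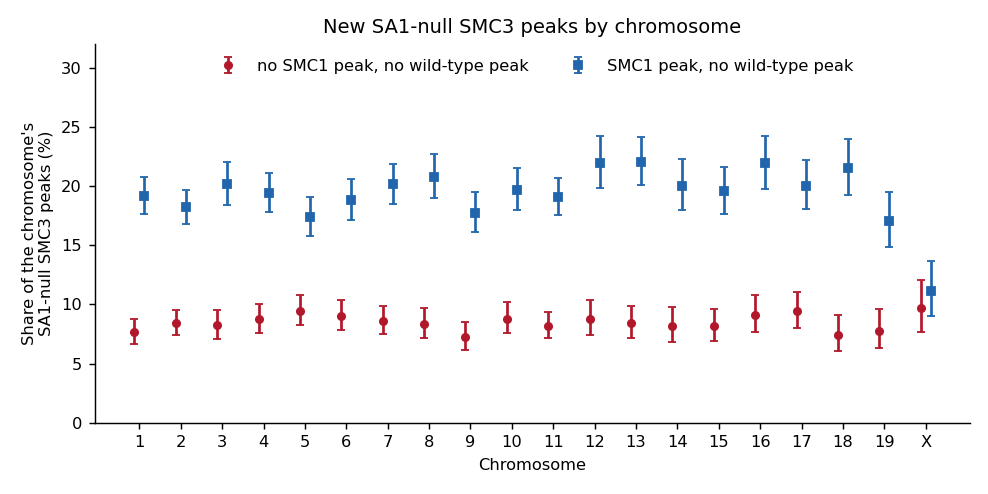
Share (%) of each chromosome's SA1-null SMC3 peaks that were new without SMC1 (red circles) and new with SMC1 (blue squares), with 95% Wilson intervals over peaks. The red points lie between 7.27% and 9.67%; the blue point of X, 11.1%, lies below all autosomes.

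Over megabases the unaccompanied peaks followed the density of cohesin. In 2584 windows of 1 Mb, 1206 (46.7%) held none, 640 held 1, and the mean was 1.14. With the windows put in 3 parts of near-equal number by their wild-type SA1 peaks, the poorest part held 196 unaccompanied peaks (6.66%), the middle part 950 (32.3%) and the richest part 1795 (61.0%). As a share of the SMC3 peaks there, this was 9.20%, 9.24% and 8.02%, so the absolute density differed far more than the share. Across windows, Spearman's rho between unaccompanied peaks and wild-type SA1 peaks was 0.60, and with the mirror set it was 0.64. For new SMC3 peaks with SMC1 the values were 0.71 and 0.79, with counts per window that were larger. These coefficients describe 2584 windows whose counts share each region's mappability, base composition and gene density, and carry no test.

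**Figure D5:**
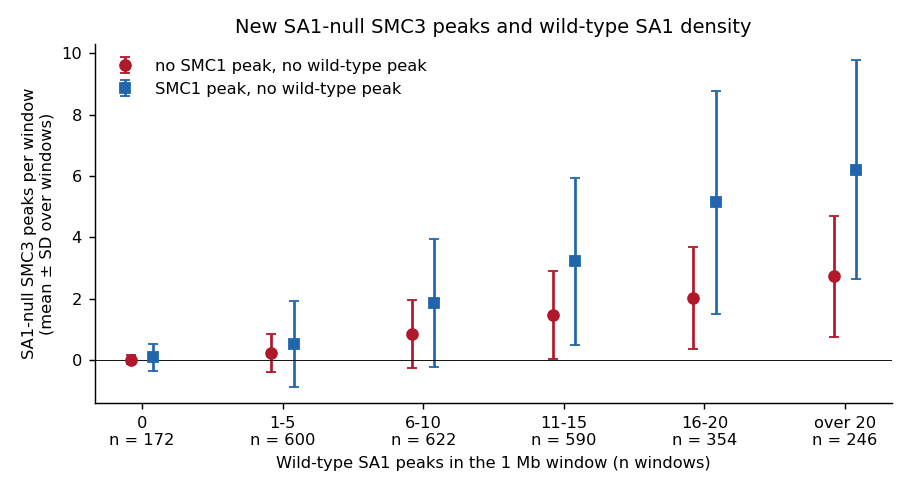
Number of new SA1-null SMC3 peaks per 1 Mb window, without SMC1 (red circles) and with SMC1 (blue squares), by number of wild-type SA1 peaks in the window; points are means and bars SD over windows. Unaccompanied peaks averaged 0.0233 in windows without SA1 and 2.74 in windows with over 20 SA1 peaks.

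The window with most unaccompanied peaks was on chromosome 19 from 4000001 to 5000000, with 13. It held 51 SMC3 peaks, of which 25.5% were unaccompanied, against 8.45% of all SA1-null SMC3 peaks. Of the 51, 7 were new with SMC1 and 31 had SMC1 and a wild-type peak. It also held 54 SMC1 peaks, 24 wild-type SA1 peaks and 7 SA1-null SA2 peaks, and the 13 stood a median of 4142 bp from SMC1. The closest case of all, described above, lay in it. The window on chromosome 4 from 134000001 to 135000000 held 10 unaccompanied peaks among 50 SMC3 peaks (20%), with 19 new with SMC1. The window on chromosome 10 from 79000001 to 80000000 held 9 among 54 (16.7%), with 5 new with SMC1, and tied with 1 other window. The median window held 11 SMC3 peaks. These windows were picked for their counts of unaccompanied peaks, and that choice by itself favours high shares.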

How the data were processed

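Per the labels, ChIP-seq libraries of SA1-null and wild-type fibroblasts were sequenced on a Genome Analyzer IIx. The authors deposited 10 lists with 3 columns (chromosome, start, end) and no score. The submitters' processing notes name CASAVA 1.7 and mm9. The sources used here do not give the aligner or the peak caller. Per the deposited file names, lists were called at a false discovery rate of 10, with no minimum fold, the SMC lists and the SA1-null SA1 list against one input and the other SA lists against the other.

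Overlaps, gaps and widths were computed with Python 3.11.15, numpy 2.4.6, pandas 2.3.3, scipy 1.17.1 and statsmodels 0.14.6. Overlap counts were checked against bedtools 2.31.1 for 100 ordered pairs of lists (0 differed) and tested on simulated data. Starts are printed 1-based. Because the processing notes name mm9, a GRCm38.p6 gene table was not used. On 10 of 20 chromosomes the last peak lay beyond the last gene of that table, which by itself does not settle the build. Neither an mm9 genome nor its annotation was used, and no sequence, gene or motif is given. The members, comparisons and the rule for named positions (5 widest, 3 nearest to SMC1, 3 farthest from other lists, 3 fullest windows) were chosen with earlier results of these data known. Depth per sample is unknown.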

Additional observations from a re-analysis of the deposited data

How the results depend on the processing

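No paired analysis was possible because each group has 1 list, and for the same reason no replicate could be left out. Of the recomputed values, 20 stayed within 1.5 times the count or within the counting interval, and 8 moved. A gap of at least 5000 bp to every excluding list left 1658 of the 2941 peaks, and the widest 50% of SMC3 peaks held 542. Counting SA2 peaks within 1000 bp gave a share of 0.850%, against 0% for overlap. A gap of at least 1000 bp to every excluding list put the median distance to wild-type SA1 at 26227 bp, the autosomal share at 6.96% and the share with another unaccompanied peak within 10 kb at 6.89%, which within 50 kb was 26.2%. Measured between edges, the median distance to SMC1 was 7224 bp. Distance and gap settings move these values by construction. The number ranged from 2437 to 4301 under the other alternatives, the highest with only the widest SA1-null SMC1 peaks kept, as many as there are SMC3 peaks. That setting was chosen after seeing the data, as was leaving each wild-type list out of the rule (2949 to 3388). Settings that need a score, a genome or an annotation of mm9 were not run. Without heights or depth, weak and false calls cannot be told from positions that hold SMC3.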
